A study of Mus musculus with 18 samples.

Results

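The 10 genes described here take up, bind, store and release fatty acids: lipoprotein lipase (Lpl), its inhibitor Angptl4, the fatty acid carriers Cd36, Fabp4 and Fabp5, the triglyceride synthases Dgat1 and Dgat2, the droplet protein Plin2, and the lipases Pnpla2 and Lipe. They were named by symbol for their known function in lipid uptake, binding and droplets, and all 10 were found among the 53090 genes of the count table and among the 19284 genes with enough counts to be tested. The libraries are RNA-seq of cells labelled beta cell, sorted from mouse islets by light scatter and their own fluorescence after a night in culture. LIRKO mice lack the insulin receptor in the liver only, so the knockout is not in the cells measured, and Ctrl mice are their controls. Both genotypes were fed Chow or HFD, read here as a high-fat diet, which gave 11 Ctrl libraries (6 on chow, 5 on HFD) and 7 LIRKO libraries (4 on chow, 3 on HFD). The driver of the liver deletion, the control's genotype, age, sex, strain and the time on diet are unstated in the labels used here.

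Lipoprotein lipase splits the triglycerides of circulating lipoproteins into fatty acids. In most tissues it is made by parenchymal cells and carried to the capillary wall, where the endothelial protein GPIHBP1 anchors it and ANGPTL4 inactivates it. Fatty acids that enter a cell are bound by fatty acid binding proteins, joined to glycerol by the DGAT enzymes and kept in droplets coated by PLIN2, from which PNPLA2 (adipose triglyceride lipase) and LIPE (hormone-sensitive lipase) release them again. Beta cells make lipoprotein lipase themselves, and fatty acids both support and, in excess, impair insulin secretion.

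Total counts were 19490235 to 51714775 per library. The 11 beta cell markers, led by Ins2, Ins1 and Iapp, summed to 100162 to 234576 counts per 1e6 reads (CPM, scaled by TMM) per library, above every other marker list. Of the 8 adipocyte markers, 7 had at most 10 counts in any library, and the list's sum of 3.01 to 18.6 CPM was mostly Acvr1c. Ctrl HFD replicates 1 and 2 stood apart, with 1.37% and 1.06% of counts on the nuclear RNA Malat1 against 0.0866% to 0.6003% elsewhere. LIRKO chow replicates 1 and 2 were near-identical, as were replicates 3 and 4: the median absolute deviation of their log2 ratio over 13424 genes was 0.105 and 0.117, against at least 0.196 for other pairs of 1 group. Counts within these pairs still differed by more than sampling noise (chi-square per degree of freedom of 5.88 and 7.80). This excess cannot tell separate animals from repeated libraries of the same animal. All 4 were kept as deposited, and the calls were also remade with each pair summed. The labels do not say that the libraries of a group are separate animals, so p-values measure the spread between libraries, and replicate numbers only follow the deposited order. In these bulk samples, fewer cells of a type and less RNA per cell cannot be told apart.

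Lpl was lower in LIRKO than in Ctrl beta cells on both diets, and lower on HFD than on chow in both genotypes. In Ctrl chow it ran from 282 to 492 CPM with a median of 378. In Ctrl HFD the 5 libraries were at 214, 215, 192, 113 and 189 CPM. In LIRKO chow the 4 were at 132, 136, 100.4 and 95.4 CPM, and in LIRKO HFD the 3 were at 54.3, 49.3 and 43.8 CPM. The group means fell in the order given, and each group was clear of the next except Ctrl HFD and LIRKO chow, where replicate 4 of Ctrl HFD lay inside the LIRKO chow range. Group means were 377 ± 86.0 (SD, n = 6), 184 ± 41.9 (n = 5), 116 ± 21.1 (n = 4) and 49.1 ± 5.26 CPM (n = 3), so that the 3 groups after Ctrl chow stood at 48.9%, 30.7% and 13.0% of it. The gene (ENSMUSG00000015568) lies on chromosome 8 from 68880491 to 68907448 on GRCm38.

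**Figure D1:**
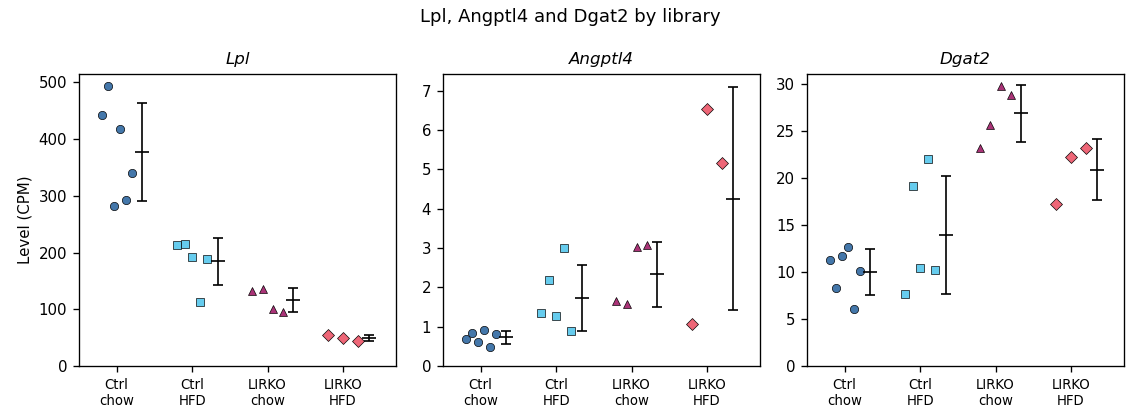
Levels of Lpl, Angptl4 and Dgat2 in CPM on linear axes from 0, by group; each point is 1 library, and the bar beside it is the mean ± SD of the group. Lpl steps down from 377 CPM in Ctrl chow to 49.1 CPM in LIRKO HFD, while all 4 LIRKO chow libraries lie above all 6 Ctrl chow libraries for Angptl4 and Dgat2.

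Changes were tested with edgeR's quasi-likelihood test on all genes, with Benjamini-Hochberg adjusted p-values within each comparison and a threshold of 0.05. On chow, Lpl fell in LIRKO by 1.70 on the log2 scale (SE 0.20, 3.25-fold, adjusted p = 0.000152), which ranked it 17th by p among the 19284 genes. On HFD it fell 3.75-fold, by 1.91 (SE 0.24, adjusted p = 0.00382), the smallest p-value of any gene in that comparison. Both calls stayed under the threshold in all 25 alternative settings, with adjusted p up to 0.00942 on chow and 0.0445 on HFD. The groups did not overlap on either diet: every LIRKO library was below the lowest Ctrl library of the same diet.

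Lpl also fell on HFD within each genotype. In Ctrl mice the fall was 1.03 on the log2 scale (SE 0.18, 2.05-fold, edgeR adjusted p = 0.015), and in LIRKO mice 1.24 (SE 0.24, 2.36-fold, adjusted p = 0.0151). The test of the difference between the 2 genotype effects, the genotype by diet interaction, gave −0.21 (SE 0.29, adjusted p = 0.993). The fall in Ctrl mice was −1.15 with an adjusted p of 0.0472 without Ctrl HFD replicates 1 and 2, but did not pass when only Ctrl libraries were fitted (−0.99, adjusted p = 0.0902). The fall in LIRKO mice did not pass with the near-identical LIRKO chow pairs summed (adjusted p = 0.153), nor without LIRKO chow replicate 1 (0.0563) or 2 (0.0599) or LIRKO HFD replicate 2 (0.0747) or 3 (0.0689).

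Beta cells are themselves a source of Lpl, and some of their markers were lower in the same comparisons. For HFD in Ctrl mice 4 of the 11 beta cell markers fell (Pdx1, Mafa, G6pc2 and Pcsk1), with a median log2 change of −0.48 over the list and 9.93% of all genes called. For LIRKO on chow 1 of 11 fell (Pdx1), with a median of −0.50 and 5.15% of all genes called. For HFD in LIRKO mice 1 of 11 fell (Mafa), with a median of −0.40 and 2.03% of all genes called. In these 3 comparisons 7, 5 and 4 of 11 had an unadjusted edgeR p under 0.05, and DESeq2 called 4, 2 and 3. Groups did not overlap for 2, 4 and 5 of 11, against 3.56%, 11.7% and 34.4% of all genes. For LIRKO on HFD edgeR and DESeq2 called 0 of 11, with 3 at an unadjusted p under 0.05 and a median of −0.41. The summed level of the list, mostly Ins2, Ins1 and Iapp, was 143455 to 234576 CPM on chow and 100162 to 204190 CPM on HFD in Ctrl mice. In LIRKO mice it was 171596 to 221944 and 110261 to 209323 CPM, so these sums overlapped. The part of beta cell content in the Lpl values was not tested.

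Angptl4 (ENSMUSG00000002289, chromosome 17, 33773750 to 33781830), the secreted inhibitor of lipoprotein lipase, was scarce, at 16 to 300 counts per library. It ran from 0.493 to 0.918 CPM in Ctrl chow with a median of 0.754, and stood at 1.67, 1.57, 3.02 and 3.07 CPM in the LIRKO chow libraries, all of them higher. The rise on chow was 3.19-fold (log2 1.67, SE 0.41, edgeR adjusted p = 0.0233), in the direction opposite to Lpl. It did not pass with the near-identical pairs summed (adjusted p = 0.168), nor without LIRKO chow replicate 3 (0.0908) or 4 (0.0877), which are the higher pair. In Ctrl HFD Angptl4 was at 1.34, 2.19, 1.27, 2.99 and 0.898 CPM, of which replicate 5 lay within the Ctrl chow range. In LIRKO HFD the libraries were split, with replicate 1 at 1.07 CPM and the others at 6.54 and 5.16 CPM. None of the 3 remaining pairwise tests of Angptl4 passed. The log2 change was 1.25 for HFD in Ctrl mice (SE 0.40, adjusted p = 0.0532, passing in 6 of the 25 settings), 0.87 for HFD in LIRKO mice (adjusted p = 0.365) and 1.30 for LIRKO on HFD (adjusted p = 0.346).

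Of the 2 synthases that make triglyceride from diacylglycerol, Dgat2 rose in LIRKO mice on chow. Dgat2 (ENSMUSG00000030747, chromosome 7, 99153658 to 99182719) ran from 6.10 to 12.7 CPM in Ctrl chow with a median of 10.7, and stood at 23.2, 25.6, 29.8 and 28.9 CPM in LIRKO chow. All LIRKO chow libraries were thus above all Ctrl chow libraries, and Dgat2 rose 2.68-fold (log2 1.42, SE 0.25, edgeR adjusted p = 0.00242), a call kept in all 25 settings. Dgat1 (ENSMUSG00000022555, chromosome 15, 76502015 to 76511953), which belongs to another enzyme family, had a log2 change of 0.20 (SE 0.17, adjusted p = 0.581), from 23.5 ± 5.24 to 26.9 ± 2.83 CPM. That the 2 genes differ in response was not tested.

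Some markers of duct, PP, delta and alpha cells separated or shifted the same chow groups. The 6 duct cell markers summed to 58.1 to 109 CPM in Ctrl chow and to 167 to 191 CPM in LIRKO chow, with no overlap. Spp1, the secreted phosphoprotein osteopontin, went from 32.0 ± 22.1 to 137 ± 7.49 CPM and was the 1 duct marker of the 6 that rose (log2 2.10, SE 0.44, edgeR adjusted p = 0.00884). The 2 PP cell hormone genes summed to 261 to 1937 CPM in Ctrl chow and 127 to 394 CPM in LIRKO chow, and 1 of them fell (Pyy, log2 −1.76, SE 0.46, adjusted p = 0.0301). Both had an unadjusted edgeR p under 0.05, with a median log2 change of −1.89, and DESeq2 called 2. Of the 5 delta cell markers 4 were tested and 0 passed in edgeR. There 2 had an unadjusted p under 0.05, the median was −0.95, and DESeq2 called 1. The 7 alpha cell markers summed to 959 to 2138 CPM in Ctrl chow and 698 to 2323 CPM in LIRKO chow, so the sums overlapped. Their member Ttr did not, at 140 to 203 against 282 to 349 CPM, and 1 of the 7 rose. In this comparison edgeR called 5.15% of all genes. Within LIRKO chow the alpha sum split as Angptl4 did. It was 698 and 706 CPM in replicates 1 and 2, and 2118 and 2323 CPM in replicates 3 and 4. In LIRKO HFD it was 726, 3059 and 3880 CPM, lowest in replicate 1 as for Angptl4. The beta cell sum there was 209323, 128615 and 110261 CPM. In Ctrl HFD the alpha sum was 661, 1359, 4449, 4534 and 879 CPM, where replicate 3 had Angptl4 at only 1.27 CPM. The part of these cells in the chow changes of Lpl, Angptl4 and Dgat2, or in the HFD values of Angptl4, was not tested.

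On HFD the genotypes were closer for Dgat2. The Ctrl HFD libraries were spread at 7.70, 19.2, 10.4, 22.0 and 10.3 CPM, and the LIRKO HFD libraries stood at 17.2, 22.3 and 23.2 CPM, so the groups overlapped. The log2 change was 0.59 (SE 0.28, edgeR adjusted p = 0.644). The interaction for Dgat2 was −0.83 (SE 0.39), with an unadjusted p of 0.0443 and an adjusted p of 0.896, so a smaller genotype difference on HFD did not pass the test. Dgat1 differed by −0.13 between the genotypes on HFD (adjusted p = 0.921). Its mean in Ctrl mice was 32.6 ± 7.22 CPM on HFD (log2 0.47, SE 0.16, adjusted p = 0.0624), a change that passed in 5 of the 25 settings, among them the one without Ctrl chow replicate 4 (adjusted p = 0.0183), whose 33.7 CPM was the highest of that group.

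The 3 carriers of fatty acids all had their highest group mean in LIRKO HFD. Fabp4 (ENSMUSG00000062515, chromosome 3, 10204088 to 10208576) is the fatty acid binding protein of adipocytes and is also made by capillary endothelium and macrophages. It ran from 0.832 to 4.51 CPM in Ctrl chow with a median of 1.44, and stood at 13.3, 19.4, 5.77, 12.5 and 4.52 CPM in Ctrl HFD. Every Ctrl HFD library was above every Ctrl chow library, the closest at 4.52 against 4.51 CPM, and the rise was 5.04-fold (log2 2.33, SE 0.67, edgeR adjusted p = 0.0418). Without Ctrl HFD replicates 1 and 2, which hold the 2 highest values, the change was 1.83 and did not pass (adjusted p = 0.198), and in all the call was lost in 12 of the 25 settings. The 8 single libraries whose removal ended it were Ctrl chow replicates 1, 2, 5 and 6, Ctrl HFD replicates 1 and 2, and LIRKO HFD replicates 2 and 3.

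In LIRKO chow, Fabp4 split by the near-identical pairs: it was at 0.392 and 0.798 CPM in the pair of replicates 1 and 2, but at 11.2 and 9.09 CPM in the other. In LIRKO HFD it was at 22.4, 21.5 and 15.1 CPM, above all LIRKO chow values, but the log2 change of 1.87 missed the threshold (SE 0.80, edgeR adjusted p = 0.25). Between genotypes the changes were 1.30 on chow (adjusted p = 0.328) and 0.83 on HFD (adjusted p = 0.844).

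Endothelial markers moved with Fabp4 across the libraries. The 15 markers, led by Kdr, Flt1 and Pecam1, summed to 44.1 to 232 CPM in the Ctrl chow libraries. On HFD the sum was 180 to 367 CPM in Ctrl and 292 to 358 CPM in LIRKO mice. LIRKO chow was split as for Fabp4: the sum was 20.8 and 25.2 CPM in the first pair and 211 and 181 CPM in the second. None of the 15 was at 0 counts in all libraries. On HFD, 4 of the 15 rose in Ctrl mice (Tie1, Esam, Egfl7 and Sox17), where 9.93% of all genes were called. All 15 had a positive change there with an unadjusted p under 0.05, the median log2 change was 1.69, and DESeq2 called 10. In LIRKO mice 1 of the 15 rose on HFD (Esam), with 2.03% of all genes called, 11 at an unadjusted p under 0.05 and a median of 1.73. Between genotypes 0 of 15 passed in edgeR on either diet, 0 had an unadjusted p under 0.05, and DESeq2 called 0. The 8 fibroblast and stellate cell markers, led by Rgs5, Col3a1 and Pdgfrb, showed the same split at a lower level. In Ctrl mice they summed to 2.31 to 16.8 CPM on chow and 13.2 to 75.6 CPM on HFD. Within Ctrl HFD their sums did not follow Fabp4, at 19.7, 23.0, 75.6, 62.8 and 13.2 CPM in replicates 1 to 5. Fabp4 was highest there in replicate 2, and these sums in replicate 3. LIRKO chow was at 1.32 and 1.37 CPM in the first pair and 23.6 and 19.2 CPM in the second, and LIRKO HFD at 32.5 to 41.1 CPM. Their median log2 change on HFD was 2.08 in Ctrl and 2.05 in LIRKO mice. None passed in edgeR (0 of 8 in each, with 6 and 4 at an unadjusted p under 0.05), while DESeq2 called 2 in Ctrl and 0 in LIRKO mice. The macrophage list of 12 genes, led by C1qa, Lyz2 and C1qb, summed to 121 to 208 CPM on chow and 141 to 281 CPM on HFD in Ctrl mice. In LIRKO mice these ranges were 102 to 169 CPM on chow and 216 to 250 CPM on HFD. Of its 12 genes, 4 rose on HFD in LIRKO mice (Lyz2, C1qc, Tyrobp and Aif1), with 2.03% of all genes called. On HFD in Ctrl mice 0 of 12 passed in edgeR, with 9.93% of all genes called. There 6 had an unadjusted p under 0.05, and DESeq2 called 4. For LIRKO on chow 1 of 12 fell (Lyz2), with 5.15% of all genes called. The LIRKO chow split was not particular to the endothelial and fibroblast lists. The macrophage sum was 102 and 102 CPM in the first pair and 169 and 151 CPM in the second. Alpha cell sums (698 and 706 against 2118 and 2323 CPM) and PP cell sums (144 and 127 against 394 and 325 CPM) rose likewise. Acinar cell sums went the other way, at 216 and 274 CPM in the first pair and 56.3 and 25.4 CPM in the second. The part of these cell types in the Fabp4 values was not tested.

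**Figure D2:**
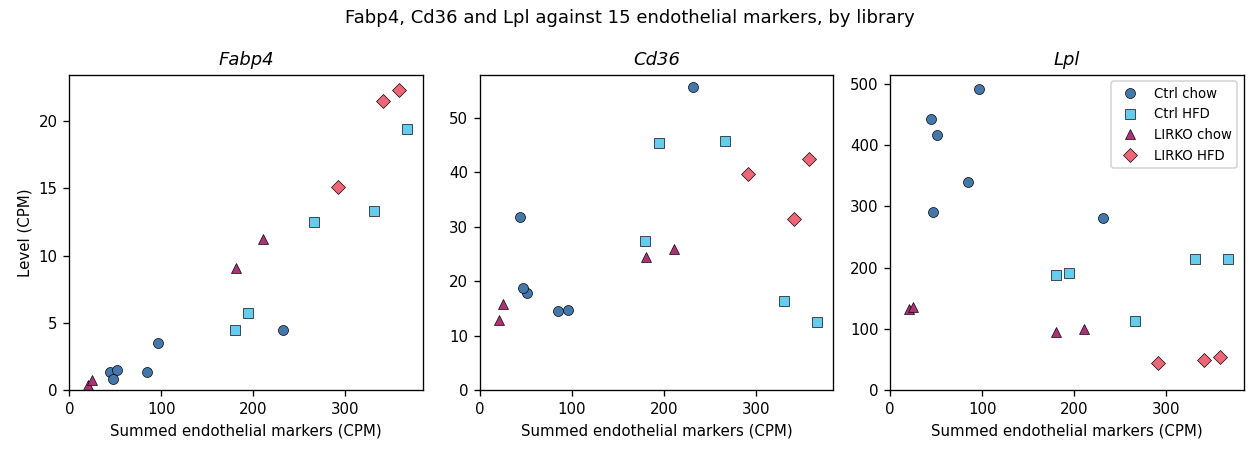
Level of Fabp4, Cd36 and Lpl (vertical axes, CPM) against the summed level of 15 endothelial markers (horizontal axes, CPM), both linear from 0; each point is 1 library, with a colour and shape for each group. Fabp4 is at 0.392 to 4.51 CPM where the marker sum is under 100 CPM or in Ctrl chow, and at 15.1 CPM or more in the 3 LIRKO HFD libraries, while Lpl is lowest in those same 3 libraries.

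For Lpl the same libraries read as follows. It was lowest in LIRKO HFD, where the endothelial sum was at least 292 CPM in every library. In Ctrl mice it fell on HFD while the endothelial sum went from 44.1 to 232 CPM on chow to 180 to 367 CPM on HFD. In LIRKO chow it was at 132 and 136 CPM in the pair with the low endothelial sum and at 100.4 and 95.4 CPM in the pair with the high one, and both pairs were below the lowest Ctrl chow library. The part of these cell types in the Lpl values was not tested.

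Cd36 (ENSMUSG00000002944, chromosome 5, 17781690 to 17888801), a membrane receptor for fatty acids and lipoproteins, varied widely within groups. It ran from 14.6 to 55.7 CPM in Ctrl chow with a median of 18.3, and stood at 16.4, 12.5, 45.3, 45.8 and 27.3 CPM in Ctrl HFD. In LIRKO chow it was at 12.9, 15.8, 25.8 and 24.5 CPM, and in LIRKO HFD at 42.4, 31.4 and 39.7 CPM. The LIRKO HFD libraries were above all LIRKO chow libraries, but the log2 change of 0.94 missed the threshold (SE 0.47, edgeR adjusted p = 0.327). The other pairwise changes were −0.37 for LIRKO on chow, 0.36 for LIRKO on HFD and 0.21 for HFD in Ctrl mice, with adjusted p of 0.673, 0.902 and 0.713, and each of these 3 changed sign in at least 1 setting.

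Fabp5 (ENSMUSG00000027533, chromosome 3, 10012548 to 10016607), a widely expressed fatty acid binding protein, ran from 2.31 to 12.1 CPM in Ctrl chow with a median of 6.02. It was at 12.3, 13.5, 10.4, 12.7 and 7.50 CPM in Ctrl HFD and at 8.62, 7.76, 8.25 and 7.80 CPM in LIRKO chow. The LIRKO HFD libraries, at 18.6, 23.0 and 18.9 CPM, were above all libraries of the other groups. None of the tests of Fabp5 passed: the log2 change was 1.32 for HFD in LIRKO mice (SE 0.37, edgeR adjusted p = 0.0715), 0.84 for LIRKO on HFD (SE 0.35, adjusted p = 0.525), 0.73 for HFD in Ctrl mice (SE 0.30, adjusted p = 0.0966) and 0.26 for LIRKO on chow (adjusted p = 0.714). The first of these passed in 5 of the 25 settings, among them DESeq2 (adjusted p = 0.0149) and the fit to LIRKO libraries only (0.00136). Reads of a gene with processed copies elsewhere in the genome, as Fabp5 has, can be split between them, so its level is uncertain.

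Plin2 (ENSMUSG00000028494, chromosome 4, 86648386 to 86670060), the coat protein of droplets outside fat tissue, also had its highest group mean in LIRKO HFD. Ctrl means were 50.7 ± 8.12 CPM on chow (SD, n = 6) and 52.7 ± 15.8 CPM on HFD (n = 5). LIRKO means were 61.7 ± 11.9 CPM on chow (n = 4) and 84.8 ± 13.9 CPM on HFD (n = 3). The LIRKO HFD libraries were at 69.0, 90.2 and 95.1 CPM, and the Ctrl HFD libraries at 37.6, 48.1, 58.8, 77.0 and 41.8 CPM, so that the groups overlapped through Ctrl HFD replicate 4. The log2 change for LIRKO on HFD was 0.69 (SE 0.21) and did not pass (edgeR adjusted p = 0.223), except without that library (0.87, adjusted p = 0.0401). The remaining pairwise changes of Plin2 were 0.28 for LIRKO on chow, 0.06 for HFD in Ctrl mice and 0.46 for HFD in LIRKO mice, with adjusted p of 0.453, 0.841 and 0.311. Plin2 in LIRKO chow was 49.5 and 54.3 CPM in replicates 1 and 2, and 75.5 and 67.4 CPM in replicates 3 and 4. The alpha cell sum was also higher in the second pair and, within LIRKO HFD, lowest in replicate 1, as Plin2 was. The part of alpha cells in the Plin2 values was not tested.

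Pnpla2 (ENSMUSG00000025509, chromosome 7, 141455198 to 141460743), which takes the first fatty acid off stored triglyceride, was the steadiest of the 10 genes, at 36.6 to 54.3 CPM over all 18 libraries. Its 4 pairwise log2 changes lay between −0.23 and 0.17, with edgeR adjusted p of 0.255 or more. Lipe (ENSMUSG00000003123, chromosome 7, 25379527 to 25398710), whose product acts mainly on diacylglycerol, was at 3.45 to 7.50 CPM. Its means were 4.56 ± 0.821 and 4.51 ± 0.153 CPM in Ctrl and LIRKO mice on chow and 6.20 ± 1.15 and 6.04 ± 0.496 CPM on HFD. The diet change was 0.44 in Ctrl (SE 0.16, adjusted p = 0.0686) and 0.42 in LIRKO mice (SE 0.20, adjusted p = 0.291), and neither passed, although the first did in 4 of the 25 settings. The genotype changes of Lipe, −0.02 on chow and −0.04 on HFD, changed sign with the setting. Lipe shares 918 exonic bases with the antisense gene 4732471J01Rik, and since the labels and notes used here do not say whether the counting used strand, reads of the 2 may be mixed.

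**Figure D3:**
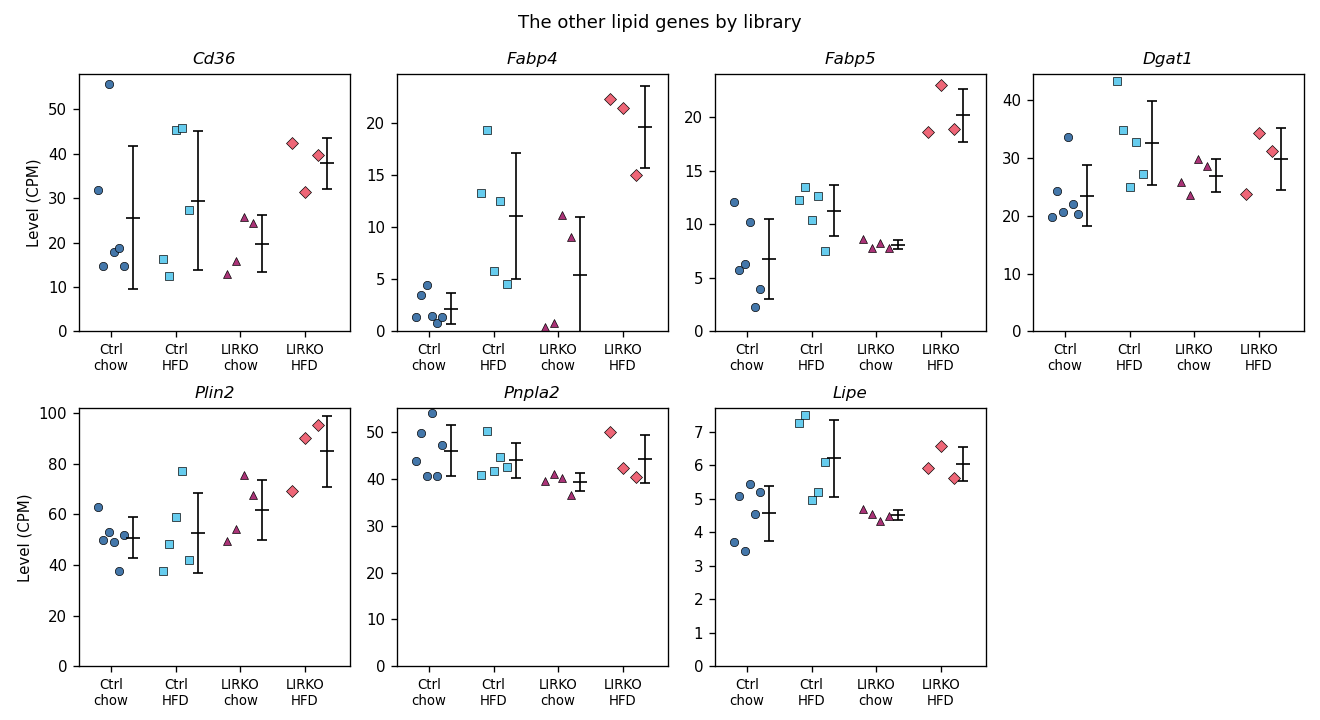
Levels of the 7 remaining genes in CPM on linear axes from 0, by group; each point is 1 library and the bar beside it the mean ± SD, which for Fabp4 in LIRKO chow is cut off at 0 because the SD exceeds the mean. The 3 LIRKO HFD libraries are the highest for Fabp5, while Pnpla2 stays between 36.6 and 54.3 CPM in all 18 libraries.

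Per length of the principal transcript, Lpl was the most abundant of the 10 genes in Ctrl chow, at 91.7 CPM per kb. Plin2 followed at 26.8 and Pnpla2 at 25.6 CPM per kb, then Dgat1 at 12.5, Cd36 at 7.52, Fabp5 at 6.87, Dgat2 at 4.44, Fabp4 at 2.43, Lipe at 1.26 and Angptl4 at 0.221. In LIRKO HFD the order on the same scale had changed: Plin2 was first at 44.9 CPM per kb, then Pnpla2 at 24.6, Fabp4 at 21.9 and Fabp5 at 20.4, and Lpl stood at 11.9. These are levels and not differences, and no test of the order was made.

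The calls over the 10 genes are set beside the share of all genes called, which differs widely between the comparisons. For LIRKO against Ctrl on chow 3 of 10 passed, 2 higher (Angptl4 and Dgat2) and 1 lower (Lpl), where edgeR called 5.15% of all genes tested (2.95% higher, 2.2% lower). The same 3 had groups that did not overlap, against 11.7% of all genes, and the median log2 change was 0.23 for the 10 genes and −0.02 for all. For LIRKO against Ctrl on HFD 1 of 10 passed (Lpl, lower), with 0.508% of all genes called (0.316% higher, 0.192% lower), and 2 of 10 did not overlap (Lpl and Fabp5), against 5.01%. The median was 0.47 for the 10 genes and −0.04 for all.

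For HFD against chow in Ctrl mice 2 of 10 passed (Fabp4 higher, Lpl lower), with 9.93% of all genes called (5.57% higher, 4.35% lower), a background of nearly 1 in 10. The same 2 did not overlap, against 3.56% of all genes, and the medians were 0.46 and 0.04. The count was 1 without Ctrl chow replicate 1, 2, 5 or 6, Ctrl HFD replicate 1 or 2 (or both), or LIRKO HFD replicate 2 or 3, and 6, 5 and 4 without Ctrl chow replicate 4 and Ctrl HFD replicates 3 and 5. For HFD against chow in LIRKO mice 1 of 10 passed (Lpl, lower), with 2.03% of all genes called (1.06% higher, 0.975% lower). It was 0 of 10 without LIRKO chow replicate 1 or 2 or LIRKO HFD replicate 2 or 3, and 2 without Ctrl chow replicate 1 or 5. There 5 of 10 did not overlap (Lpl, Cd36, Fabp4, Fabp5 and Lipe), against 34.4% of all genes. The 4 comparisons share their groups in pairs, so they are not independent of each other.

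For the genotype by diet interaction edgeR called 0 of 10, DESeq2 called 0, and 1 of 10 (Dgat2) had an unadjusted p under 0.05. Over all genes 0.00519% passed, and 1065 of 19284 had an unadjusted p under 0.05.

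**Figure D4:**
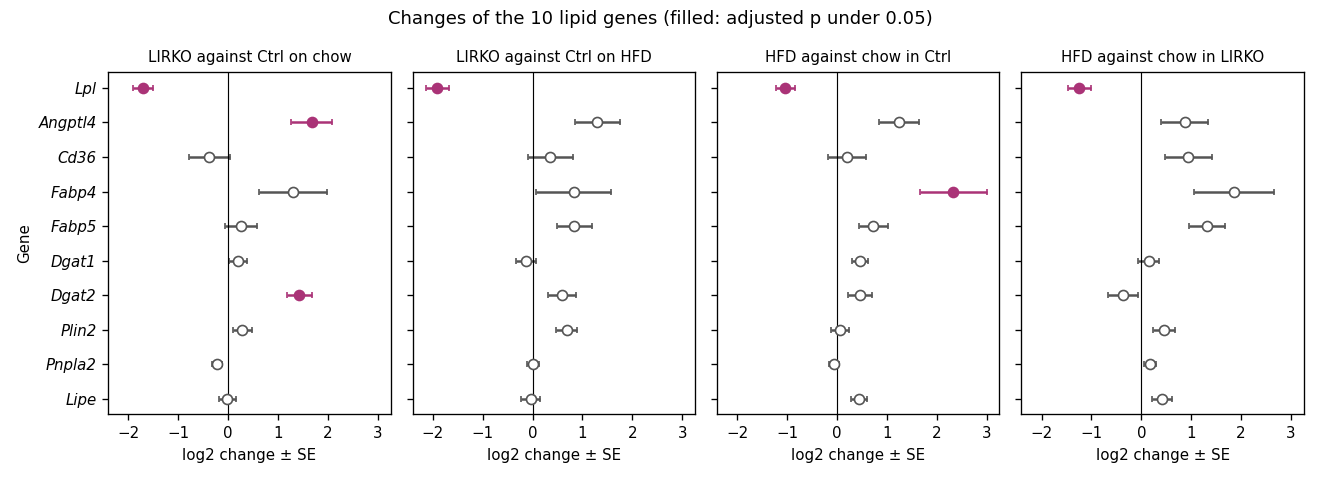
The log2 change of each of the 10 genes (horizontal axis, bars are ± 1 SE) in the 4 pairwise comparisons; filled points have an edgeR adjusted p under 0.05. Lpl is filled and below 0 in all 4, between −1.91 and −1.03, while Angptl4 and Dgat2 are filled above 0 for LIRKO on chow and Fabp4 for HFD in Ctrl mice.

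The other genes of lipid handling were read from a list of 103 in 6 roles, of which 79 were tested. Their median log2 change was −0.01, 0.01, −0.01 and −0.03 in the 4 pairwise comparisons, in the order of the paragraphs above. For LIRKO against Ctrl on chow 6 of 79 rose and 0 fell, where 2.95% of all genes rose and 2.2% fell. Whether this share differs from that of all genes was not tested, so the 6 are described as single genes. These 6 were the lipase chaperone Lmf1, which folds lipoprotein lipase in the endoplasmic reticulum, the lipoprotein genes Apob and Mttp, the phosphatidate phosphatase Lpin2, the droplet enzyme Hsd17b11 and the acylglycerol hydrolase Pnpla3.

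Hsd17b11 rose from 46.4 ± 3.60 to 72.7 ± 1.89 CPM (log2 0.65, SE 0.10, edgeR adjusted p = 0.000722) and passed in all 25 settings. Lmf1 rose from 24.1 ± 4.18 to 36.8 ± 0.931 CPM (log2 0.61, adjusted p = 0.0179) while the mRNA of its client Lpl fell. Mttp, which loads lipid onto apolipoprotein B, rose from 41.7 ± 6.16 to 63.8 ± 4.41 CPM (adjusted p = 0.0423). Apob itself was near the limit of detection, at 0 to 12 counts in the Ctrl chow libraries and 23 to 40 in the LIRKO chow libraries (log2 2.41, SE 0.57, adjusted p = 0.018). Lpin2 and Pnpla3 rose by 0.59 and 0.89 on the log2 scale (adjusted p = 0.0256 and 0.0385). With each of the 18 libraries left out in turn, the call for Mttp was lost 10 times (adjusted p up to 0.113), for Pnpla3 9 times (0.139), for Lpin2 4 times (0.132), for Apob 2 times (0.0632) and for Lmf1 1 time (0.0632). Leaving out LIRKO chow replicate 3 ended all 5 of these calls. The count of 6 was 1 with the near-identical pairs summed, 10 without Ctrl HFD replicates 1 and 2, 1 without LIRKO chow replicate 3, 2 without LIRKO chow replicate 4 and 3 without Ctrl chow replicate 2.

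For LIRKO against Ctrl on HFD 0 of 79 passed in edgeR, 11 had an unadjusted p under 0.05, and DESeq2 called 3. The count was 1 without Ctrl chow replicate 2 and 1 without Ctrl HFD replicates 1 and 2. For HFD against chow in Ctrl mice 5 of 79 rose and 8 fell, where 5.57% of all genes rose and 4.35% fell. Among the genes that fell were the lipoprotein receptor Lrp8, the acyl-CoA synthetase Acsl5, Got2, the acyltransferase Agpat5, the Pnpla2 activator Abhd5, and the transcription factors Pparg and Srebf2. Acsl5, for example, went from 159 to 104 CPM (log2 −0.62, SE 0.13, adjusted p = 0.0243). The genes that rose were the monoacylglycerol lipase Mgll (log2 1.95, adjusted p = 0.0348), Pnpla3 (1.11, 0.0242), and the transcription factors Cebpa (0.83, 0.0338), Nr4a1 (1.15, 0.0421) and Mlxipl. Mlxipl, the carbohydrate response factor ChREBP, went from 444 ± 229 to 984 ± 519 CPM (adjusted p = 0.0487) and is named after its value was seen.

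None of these 13 calls held in every setting. The count was 0 without Ctrl HFD replicates 1 and 2, with the LIRKO chow pairs summed, and when only Ctrl libraries were fitted, and it was 22 in DESeq2. Leaving out 1 library gave 0 (Ctrl chow replicate 1 or 6, Ctrl HFD replicate 1 or 2), 1 (Ctrl chow replicate 2), 6 or 7 (any LIRKO chow replicate, LIRKO HFD replicate 2 or 3) or 21 (Ctrl chow replicate 4).

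For HFD against chow in LIRKO mice 2 of 79 rose and 0 fell, near the background of 1.06% of all genes higher and 0.975% lower. They were Apoe, from 80.3 ± 43.2 to 253 ± 20.7 CPM (log2 1.66, SE 0.39, edgeR adjusted p = 0.0328), and Cebpa, from 2.69 ± 0.917 to 8.81 ± 0.614 CPM (log2 1.71, SE 0.26, adjusted p = 0.00517). Cebpa, a transcription factor of fat cell differentiation, was thus called higher on HFD in both genotypes. The call held in 16 of the 25 settings in Ctrl mice and in 24 in LIRKO mice. Apolipoprotein E is a major product of macrophages, whose marker sum was 102 to 169 CPM on chow and 216 to 250 CPM on HFD in LIRKO mice. The part of macrophages in the Apoe and Cebpa values was not tested. The count of 2 was 0 with the pairs summed and 18 when only LIRKO libraries were fitted, and it was 1, with Apoe lost, without LIRKO chow replicate 1 or 2 or any 1 LIRKO HFD library. For the interaction 0 of 79 passed in edgeR, 4 had an unadjusted p under 0.05, and DESeq2 called 0.

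**Figure D5:**
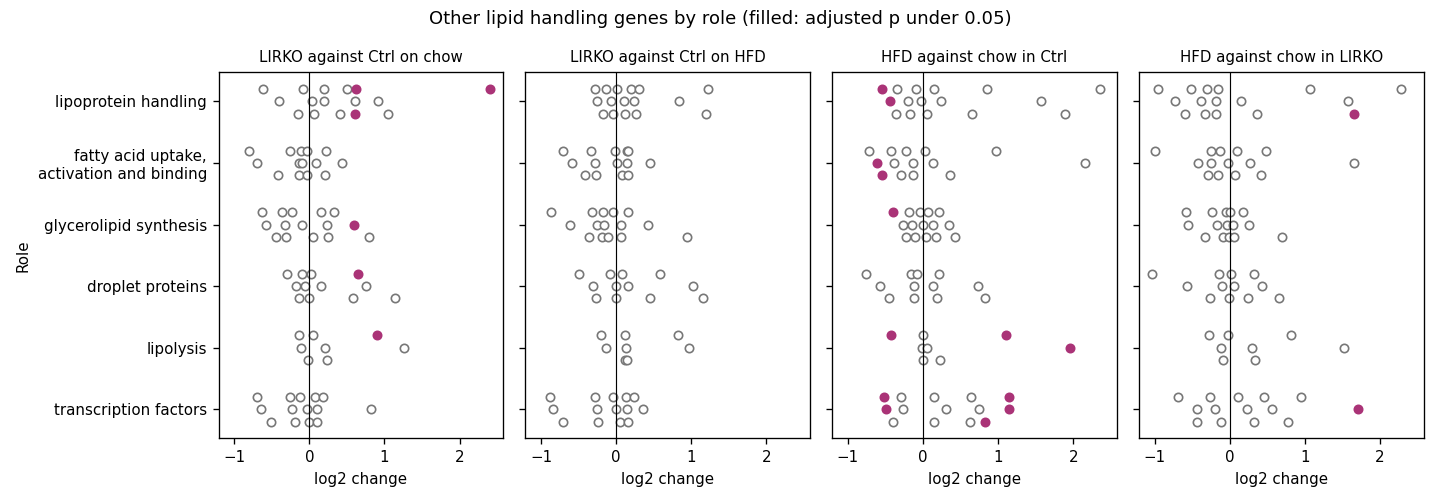
The log2 change (horizontal axis) of the 79 tested genes of the wider lipid list by role (rows; vertical scatter within a row has no meaning) in the 4 pairwise comparisons, with filled points for an edgeR adjusted p under 0.05. Filled points number 6, 0, 13 and 2 from left to right, and those for LIRKO on chow all lie above 0.

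Gpihbp1, the endothelial anchor of lipoprotein lipase, had 1 to 212 counts per library and, like the endothelial sum, was higher in the second LIRKO chow pair. Its mean was 0.495 ± 0.447 CPM on chow and 2.61 ± 1.93 CPM on HFD in Ctrl mice, and 0.949 ± 0.988 and 4.64 ± 1.44 CPM in LIRKO mice. The first LIRKO chow pair stood at 0.0245 and 0.175 CPM, the second at 1.68 and 1.92 CPM. None of its tests passed: the log2 change was 2.36 for HFD in Ctrl mice (edgeR adjusted p = 0.0545, passing in 6 of the 25 settings), 2.28 for HFD in LIRKO mice (0.212), and 0.92 and 0.84 for LIRKO on chow and HFD (0.581 and 0.867). Pparg, a lipid-sensing nuclear receptor that has Lpl, Cd36, Fabp4, Angptl4 and Plin2 among its known targets in other tissues, fell on HFD in Ctrl mice from 42.0 ± 4.62 to 29.2 ± 7.49 CPM (log2 −0.52, SE 0.16, adjusted p = 0.0461), a call lost without Ctrl HFD replicate 1 (adjusted p = 0.127) or 2 (0.112). It did not pass in the other pairwise comparisons (−0.12, −0.04 and −0.44). Abhd5, the coactivator of Pnpla2, fell on HFD in Ctrl mice by 0.43 (SE 0.11, adjusted p = 0.0343) and did not pass elsewhere (−0.02, 0.14 and −0.27). That call too was lost without Ctrl HFD replicate 1 (adjusted p = 0.103) or 2 (0.0762).

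The genes whose log2 CPM followed that of Lpl most closely over the 18 libraries, out of 10595 with a mean log2 CPM of at least 2, were Skap1, Gstm2, Fam196a, Trpm5 and Panx1. Pearson's r was 0.95, 0.95, 0.94, 0.93 and 0.91. These are descriptions over libraries that share their groups, and once each group's mean was removed r was 0.78, 0.69, 0.24, 0.64 and 0.40. Trpm5, a calcium-activated cation channel, had group means of 142 and 69.2 CPM on chow and HFD in Ctrl mice and of 53.8 and 21.4 CPM in LIRKO mice. Skap1, an adaptor protein of Src kinases, had means of 79.6, 63.2, 42.4 and 28.9 CPM in the same order, and Gstm2, a glutathione transferase, 33.7, 19.7, 15.3 and 9.67 CPM. All 3 had the same order of group means as Lpl, as is likely for genes chosen by likeness to Lpl in these libraries.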

How the data were processed

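RNA was measured in 18 libraries of sorted mouse beta cells. The authors deposited 1 table of raw counts of reads for each Ensembl gene; per the submitters' processing notes they used STAR, featureCounts and GRCm38. Versions, annotation release and use of strand were not given in the sources used here. Per the labels' protocols, libraries were directional and made from total RNA. Symbols and coordinates come from GENCODE M21, which matched 52489 of 53090 IDs. In R 4.3.3 with edgeR 4.0.16, filterByExpr (minimum count 10) left 19284 genes, libraries were scaled by TMM, and 1 quasi-likelihood model of the 4 group means was fitted to the 18 libraries. Tests are two-sided, with Benjamini-Hochberg adjustment within each comparison and a threshold of 0.05. Code was tested on simulated data. The alternatives were DESeq2 1.42.0, other scalings, no filter, fewer groups, summed pairs and left-out libraries. The members, the lists and the libraries doubted were chosen with earlier results of these data known. The text names all 10 members, up to 4 called genes per comparison and role of the wider list, Gpihbp1, Pparg and Abhd5. It also names the 3 highest genes of marker lists, and the 5 genes most like Lpl by Pearson's r of log2 CPM (prior count 2). Other markers are named where edgeR called them, so they were named after their values were seen. Depths of 19490235 to 51714775 counts leave Angptl4, Gpihbp1 and Apob with few reads. 1 called gene of the wider list is not reported here by name. No sequence is shown.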

Additional observations from a re-analysis of the deposited data

Results flagged for a closer look

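Of 30 groups of 4 to 6 libraries, 2 held 1 library far from the others, a number near what chance gives (about 1 in 20). Lpl in Ctrl HFD replicate 4 was at 112.7 CPM, below the other 4 libraries of that group at 189 to 215 CPM. Without that library, the fall of Lpl for LIRKO against Ctrl on HFD still passed. Dgat1 in Ctrl chow replicate 4 was at 33.7 CPM, above the other 5 at 19.9 to 24.3 CPM, and without it the diet change of Dgat1 in Ctrl mice was 0.60 (edgeR adjusted p = 0.0183).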

How the results depend on the processing

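Each result was recomputed in 25 settings, of which 18 left out 1 library. Of 50 pairs of gene and comparison, 7 were called and 3 of these (Lpl for LIRKO on both diets, Dgat2 for LIRKO on chow) were called in all settings; 36 of the 43 others were never called. No called change among the 10 genes changed sign. For HFD against chow in Ctrl mice the count of 2 became 5 with DESeq2, 5 with upper-quartile scaling, 1 without the filter, 0 with only the groups compared, 1 without Ctrl HFD replicates 1 and 2, 1 with the pairs summed, and 1 to 6 with 1 library left out. For HFD against chow in LIRKO mice the count of 1 became 2 with DESeq2, 3 with only the groups compared, 2 without Ctrl HFD replicates 1 and 2, 0 with the pairs summed, and 0 to 2 with 1 library left out; for LIRKO on HFD it was 1 to 2, and for LIRKO on chow 2 to 3. The causes were not tested. Over all genes, the calls for HFD in Ctrl mice went from 1914 to 1, 34 and 114 with only the groups compared, without Ctrl HFD replicates 1 and 2, and with the pairs summed. With the pairs summed, the calls went from 993 to 193 for LIRKO on chow and from 98 to 54 for LIRKO on HFD. For HFD in LIRKO mice they went from 392 to 7, so the background shares given above also depend on counting the paired libraries singly. Upper-quartile scaling moved the median of all genes to 0.179 in Ctrl and 0.152 in LIRKO mice for HFD, and the share of calls that were higher from 56.2% to 78.2% and from 52% to 66.5%.

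Changes that did not pass and reversed in sign had reversed values of at most 0.187 in size. Their main values were not all small, as for the Fabp4 interaction (−0.47, SE 1.03). Without Ctrl HFD replicates 1 and 2 together, LIRKO on HFD gave −0.0622 for Cd36, 0.0809 for Dgat1 and 0.157 for Lipe, LIRKO on chow 0.0222 for Lipe and 0.0158 for Abhd5, and the interaction 0.0489 for Fabp4 and 0.135 for Lipe. Pnpla2 gave −0.00162 for LIRKO on HFD with only the groups compared and 0.0705 for HFD in Ctrl mice with upper-quartile scaling. For LIRKO on chow Lipe gave 0.00501 with DESeq2, 0.00151 with RLE, 0.010 with upper-quartile scaling, 0.020 with no filter and 0.00495 with only the groups compared, and Abhd5 0.011, 0.0119 and 0.00259 in the last 3. Lipe gave 0.00597 for LIRKO on HFD with no filter. With 1 library left out, ranges that crossed 0 were −0.531 to 0.0139 (Cd36, LIRKO on chow), −0.00719 to 0.594 (Cd36, HFD in Ctrl), −0.239 to 0.0133 (Dgat1, LIRKO on HFD), −0.121 to 0.156 (Plin2, HFD in Ctrl) and −0.0864 to 0.0742 (Pnpla2, LIRKO on HFD). For Lipe they were −0.0844 to 0.0399 and −0.106 to 0.0405 for LIRKO on chow and HFD and −0.0910 to 0.0558 for the interaction, which gave −0.822 to 0.0822 for Angptl4 and −0.858 to 0.187 for Fabp4. For LIRKO on chow Abhd5 gave −0.0643 to 0.0191, and on HFD −0.0180 to 0.237, and Pparg −0.234 to 0.103 on HFD.

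No paired analysis was possible because the labels give the libraries no replicate numbers. Depth limits Angptl4, Apob and Gpihbp1, whose libraries hold few counts.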
